A study of Mus musculus with 4 samples.

Results

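The genes described here are those of the insulin-like growth factor (IGF) axis: the ligands Igf1 and Igf2, the receptors Igf1r and Igf2r, and the binding proteins Igfbp2, Igfbp3, Igfbp4 and Igfbp5. They were chosen by name, each has 1 probe set (the group of array probes assigned to 1 Entrez gene), and together they are 8 of the 16492 probe sets tested. Limb RNA at stage E12.5 was measured on 4 arrays, 2 of wildtype and 2 of SHOX transgenic C57BL/6 embryos, each array carrying a pool from 2 to 4 embryos with fore- and hindlimbs together. The transgene carries human SHOXa cDNA, for which the mouse has no orthologue, behind a rat Col2a1 promoter and a Col2a1 enhancer that drive it in cartilage-forming cells. Founders came from C57BL/6 x DBA/2 eggs and were mated with C57BL/6 mice, and the carriers of the lines studied were heterozygous. Which line was hybridized is not given in the sources used here, and the human transgene is not among the named probe sets. A suffix shared by the array titles places 1 wildtype and 1 transgenic array in each of 2 hybridization experiments, called experiment 1 (replicate 1 of each genotype) and experiment 2 (replicate 2), in no order. The pools of an experiment, their litters and their hybridization cannot be told apart.

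IGF-I and IGF-II are small secreted proteins that promote growth of the embryo and of the skeleton. Both signal through the IGF1 receptor, a tyrosine kinase that acts on the PI3K, AKT and MAP kinase pathways. The IGF2 receptor, which also binds mannose 6-phosphate, takes IGF-II up for breakdown in lysosomes. The binding proteins hold the ligands in the extracellular space and control how much reaches the receptor, until proteases release it. Igf2 is expressed from the paternal and Igf2r from the maternal chromosome in mouse embryos.

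The stretch before the transcription start is shown for the 2 genes whose values moved most between arrays, Igf1 and Igfbp3, and for Igf2, the gene whose values moved least. Capitals mark ATTA and TAAT, the 4 letters of SHOX binding motifs as the study describes them, searched on both strands (TAAT is ATTA read on the other strand). Each is 250 bases upstream of a RefSeq start in GRCm38.p6, written 5′ to 3′ on the strand of the gene.
Igf1, chr10:87860861-87861110, plus strand: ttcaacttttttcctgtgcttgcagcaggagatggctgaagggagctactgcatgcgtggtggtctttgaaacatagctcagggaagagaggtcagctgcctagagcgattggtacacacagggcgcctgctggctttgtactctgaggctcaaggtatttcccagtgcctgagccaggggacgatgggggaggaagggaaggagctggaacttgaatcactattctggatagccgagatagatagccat
Igfbp3, chr11:7213924-7214173, minus strand: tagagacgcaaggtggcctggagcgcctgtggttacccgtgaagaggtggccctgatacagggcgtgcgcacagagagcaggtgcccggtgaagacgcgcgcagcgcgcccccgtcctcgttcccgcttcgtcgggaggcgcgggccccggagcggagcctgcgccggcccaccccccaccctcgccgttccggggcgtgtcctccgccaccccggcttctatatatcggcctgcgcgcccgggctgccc
Igf2, chr7:142661272-142661521, minus strand: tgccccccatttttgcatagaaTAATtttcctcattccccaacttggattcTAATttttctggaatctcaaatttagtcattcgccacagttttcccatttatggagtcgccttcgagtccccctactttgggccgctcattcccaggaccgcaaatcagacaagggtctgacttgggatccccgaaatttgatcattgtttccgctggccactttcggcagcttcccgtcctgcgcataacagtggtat
All 8 genes had at least 1 such window and 12 were read in all, since Igf2 has 4 starts and Igfbp2 has 2. The motif was found in 2 of the 12, both of Igf2, and in 54.9% of all 32851 windows of this length. Of the 4 Igf2 windows the one shown held the most matches, 2, and the others held 1, 0 and 0. The Igf1 window held 5 CG pairs and the Igfbp3 window 32, beside a median of 6 over all windows. Which start was used in these limbs was not measured, and a match or its lack says nothing about binding.

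None of the 8 genes passed an adjusted test of a difference between transgenic and wildtype limbs. The differences (transgenic minus wildtype, mean of 2 against mean of 2) ran from -0.049 for Igfbp4 to 0.18 for Igfbp3 on the log2 scale, 4 of them above and 4 below 0, with a median of -0.0031 beside -0.011 over all probe sets. In limma with genotype as the only term, 0 of the 8 members passed an adjusted p of 0.05, as did 0% of all probe sets, and 0 passed a looser pair of thresholds (a mean difference of over 0.2 log2 units whose unadjusted p is below 0.05), as did 0.188% of all. The sizes of these thresholds are those of the study, which asked for the change in each experiment and did not state whether p was adjusted. Its p came from mixed models of single-probe values, and is thus of another kind than the limma p on gene values used here. With 1 array of each genotype in an experiment, the gene values give no p within one, so the fold was counted alone. In this count 0 of the 8 members differed by over 0.2 the same way in each experiment, beside 0.485% of all probe sets. With the experiment as a block 0 of the 8 passed either rule, beside 0.273% and 1.55% of all probe sets. At an unadjusted p under 0.05 there were 0 members without the block and 1, Igfbp3, with it, beside 0.194% and 7.92% of all. The arrays of the genotypes overlapped in all 8, while they were apart in 18.4% of all probe sets. With 2 arrays a genotype, an exact permutation test of a single gene cannot go below a two-sided p of 0.333. The pools are of littermates and how many litters entered is not stated, so p-values measure at most the spread between these pools. With the block the spread between experiments is taken out, and what is left is close to a spread shared over all probe sets. Xist and Y-linked genes also differed between the genotypes, so genotype and the sex make-up of the pools cannot be told apart here. Without the block even Xist, at -2.99 between genotypes, had an adjusted p of 0.125 from limma. The lack of calls in that fit thus says little about smaller differences.

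In most of the 8 genes the difference between the experiments was several times that between the genotypes, though for Igf2 (-0.012 against -0.0087) and Igfbp5 (-0.14 against 0.093) the sizes were near each other. The size of the log2 difference between experiments exceeded that between genotypes in 8 of 8 members, and in 74.4% of all probe sets, with a median size of 0.35 against 0.036 in the members and 0.11 against 0.045 over all. After repeated quantile normalization it did so in 7, since Igfbp5 was then at -0.049 between experiments and 0.098 between genotypes. Igf1, Igf2r, Igfbp2 and Igfbp3 were lower in experiment 2, and Igf1r and Igfbp4 were higher. These 6 passed an adjusted p of 0.05 (limma, experiment 2 minus experiment 1 with genotype as a second term), 2 higher and 4 lower, beside 39.2% of all probe sets in either direction, 20.1% higher and 19.1% lower. The same 6 passed the fold and p thresholds, beside 30.2% of all, and an unadjusted p of 0.05, beside 46.2%. The arrays of the experiments did not overlap in 6 of the 8 members, beside 66.4% of all probe sets. Wildtype and transgenic pools moved the same way in 6 of the 8, beside 76.4% of all. Both counts are of the same 6 genes that passed the test, and they add no separate support to it. Each experiment holds 1 pool per genotype, so this test compares 4 pools and not kinds of litter or hybridization.

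**Figure D1:**
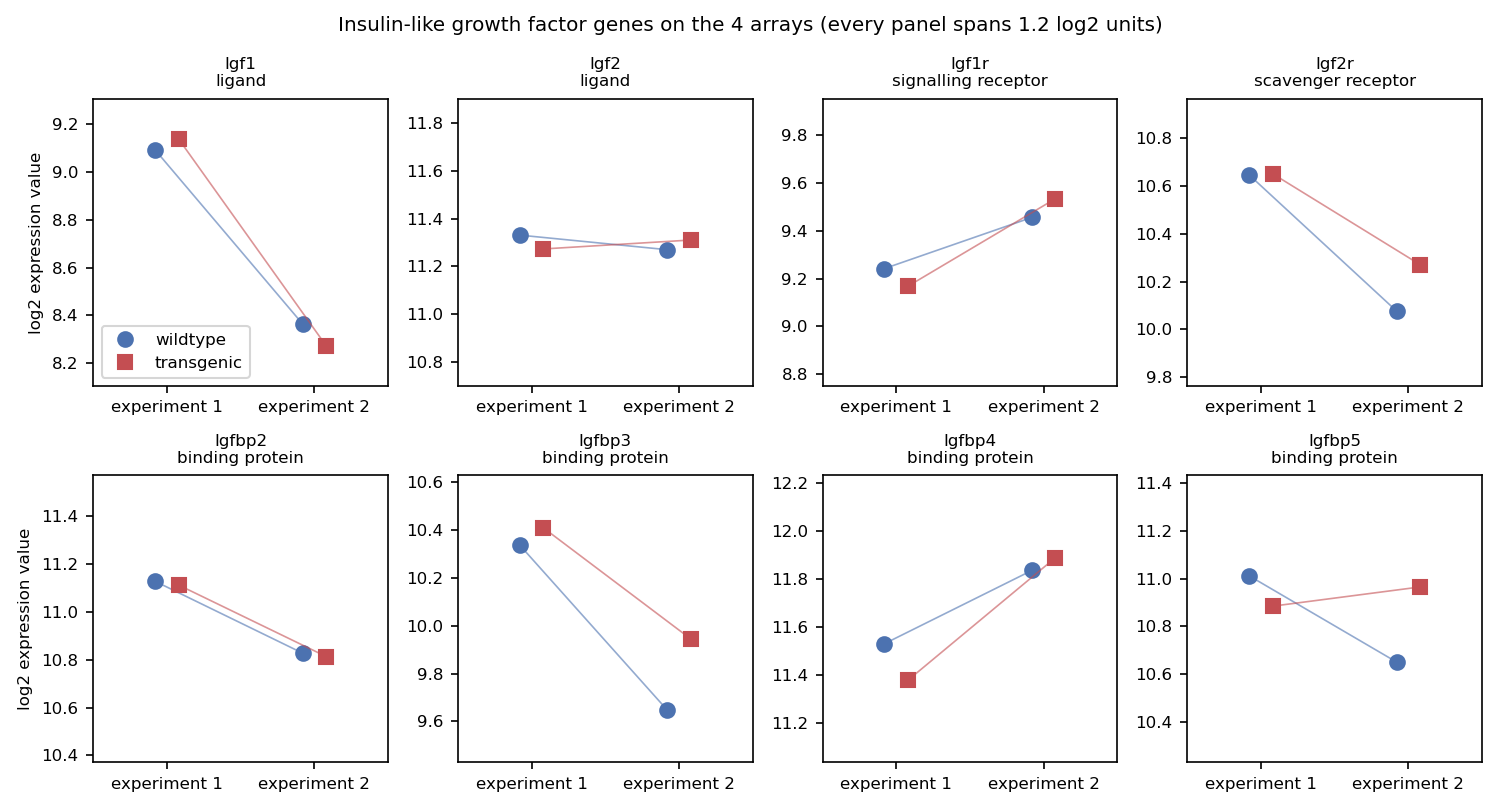
Log2 expression values of the 8 genes (y axis, 1.2 log2 units in every panel) by hybridization experiment (x axis), with wildtype arrays as circles and transgenic arrays as squares, 1 array each, and lines joining arrays of a genotype. Igf1 lay at 9.09 and 9.14 in experiment 1 and at 8.36 and 8.27 in experiment 2, and the genotypes overlapped in every panel.

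Of the ligands, Igf1, which mediates growth hormone action after birth and local growth before it, measured 9.09 (wildtype) and 9.14 (transgenic) log2 units in experiment 1. In experiment 2 it measured 8.36 and 8.27. Both pools of experiment 1 were thus high and both of experiment 2 low, whatever their genotype. The difference between experiments was -0.80 (standard error 0.060, adjusted p = 2.3e-08 from limma), a level 1.74-fold lower in experiment 2. It was -0.73 in the wildtype and -0.86 in the transgenic pools. Only 0.952% of all probe sets had a range over the 4 arrays as wide as that of Igf1, 0.86. Its genotype means were 8.73 ± 0.51 (SD, n = 2) in wildtype and 8.71 ± 0.61 (SD, n = 2) in transgenic limbs. The genotype difference was -0.023, with a 95% interval of -1.06 to 1.01 without the block and of -0.15 to 0.10 with it. It was 0.045 in experiment 1 and -0.091 in experiment 2.

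Igf2, the main growth factor of the fetus, measured 11.33 (wildtype) and 11.27 (transgenic) log2 units in experiment 1. In experiment 2 it measured 11.27 and 11.31. The 4 pools lay within 0.061 of each other, a range that 4.39% of all probe sets did not exceed, and neither genotypes nor experiments stood apart. The genotype difference was -0.0087, with an interval of -0.21 to 0.20 without the block and of -0.13 to 0.12 with it. The experiment difference was -0.012, with an interval of -0.14 to 0.11. It became 0.11 when quantile normalization was repeated on the probe sets (adjusted p = 0.174 from limma), so the flatness of Igf2 holds for the values as deposited.

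Of the receptors, Igf1r, the kinase that carries the IGF signal, measured 9.24 (wildtype) and 9.17 (transgenic) log2 units in experiment 1. Its values in experiment 2 were 9.46 in wildtype and 9.53 in transgenic limbs. The experiment 2 pools were the high ones, by 0.29 (standard error 0.061, adjusted p = 0.000895 from limma). Its genotype difference was 0.0024, with opposite signs in the experiments (-0.074 and 0.078) and intervals of -0.43 to 0.43 without and -0.13 to 0.13 with the block. The sign of that mean flipped when arrays were centred or quantile normalized again.

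Igf2r, which removes IGF-II, measured 10.65 log2 units in each pool of experiment 1. In experiment 2 it measured 10.08 and 10.27. Both experiment 2 pools were lower, by 0.57 in wildtype and 0.38 in transgenic limbs. Together the experiment difference was -0.47 (standard error 0.062, adjusted p = 9.67e-06 from limma). The genotype difference was 0.10, from 0.0044 in experiment 1 and 0.19 in experiment 2. With the block its adjusted p was 0.765 in limma and its interval -0.031 to 0.23. The receptor that signals and the receptor that clears the ligand thus moved in opposite directions between the experiments, and neither passed a test between genotypes.

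Among the binding proteins, Igfbp3, the main carrier of IGFs in blood after birth, measured 10.34 (wildtype) and 10.41 (transgenic) log2 units in experiment 1. In experiment 2 it measured 9.65 and 9.94. Transgenic pools were the higher ones in both experiments, by 0.073 and 0.30, but the experiment 2 pools of both genotypes lay below both pools of experiment 1. The genotype means were 9.99 ± 0.49 (SD, n = 2) in wildtype and 10.18 ± 0.33 (SD, n = 2) in transgenic limbs. With the block, the difference of 0.18 was the largest of the 8, with a standard error of 0.064 and an unadjusted p of 0.00977 from limma, and an adjusted p of 0.378. Without the block its standard error was 0.29 and its adjusted p 1 from limma. The experiment difference was -0.58 (standard error 0.064, adjusted p = 1.58e-06 from limma).

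Igfbp4, which mostly restrains IGF action until the protease PAPP-A cleaves it, ran the other way between experiments. It measured 11.53 (wildtype) and 11.38 (transgenic) log2 units in experiment 1. In experiment 2 it measured 11.84 and 11.89. The experiment 2 pools were higher by 0.41 (standard error 0.063, adjusted p = 5.01e-05 from limma). The genotype difference was -0.049, with -0.15 in experiment 1 and 0.054 in experiment 2, and an interval with the block of -0.18 to 0.083.

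Igfbp2, a binding protein abundant in embryonic tissues, measured 11.13 (wildtype) and 11.11 (transgenic) log2 units in experiment 1, and 10.83 and 10.81 in experiment 2. Its genotypes lay close together in each experiment, at -0.016 and -0.014. The experiment difference was -0.30 (standard error 0.058, adjusted p = 0.000443 from limma), and it was -0.30 in each genotype. The genotype interval with the block was -0.14 to 0.11.

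Igfbp5, a binding protein of muscle, cartilage and bone precursors, was the member whose experiments disagreed most on the genotype. It measured 11.01 (wildtype) and 10.88 (transgenic) log2 units in experiment 1. In experiment 2 it measured 10.65 and 10.96. The wildtype pool of experiment 2 was the low one and the other 3 lay within 0.13 of each other. The genotype difference was -0.13 in experiment 1 and 0.31 in experiment 2, with a mean of 0.093 (blocked limma fit, adjusted p = 0.857). With 1 array per genotype and experiment, the difference between these values cannot be tested. The experiment difference was -0.14 (adjusted p = 0.175 from limma) in all pools, -0.36 in wildtype and 0.080 in transgenic pools. Over the 8 members the genotype difference had the same sign in both experiments in 3, Igf2r, Igfbp2 and Igfbp3, and in 52.9% of all probe sets.

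**Figure D2:**
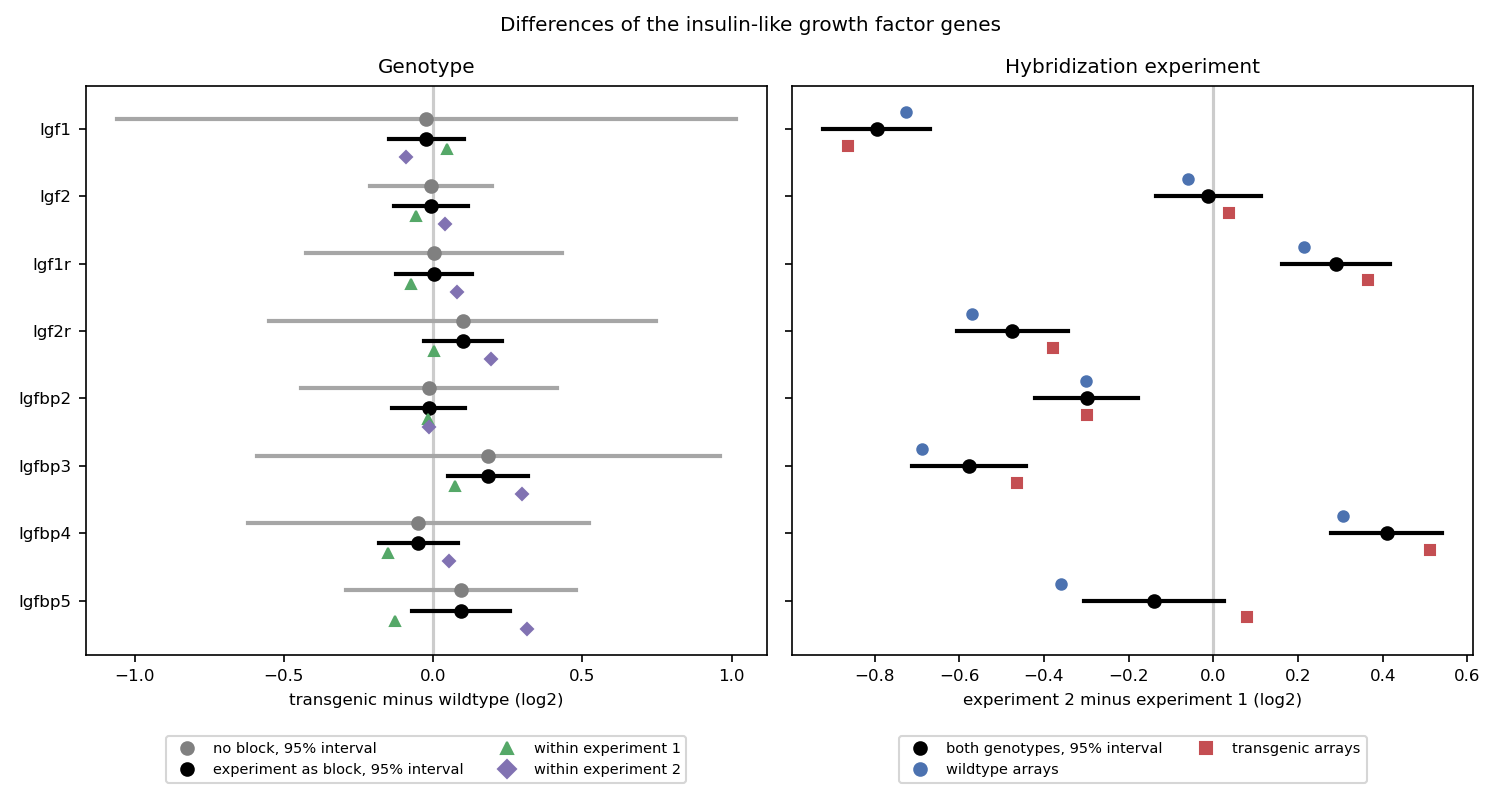
Left, transgenic minus wildtype log2 differences with 95% intervals from limma without a block (grey) and with the experiment as a block (black), and the differences within each experiment (triangles and diamonds). Right, experiment 2 minus experiment 1 with 95% intervals (black) and the same difference in wildtype (circles) and transgenic arrays (squares). Genotype means ran from -0.049 to 0.18 and experiment differences from -0.80 to 0.41.

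The standard errors with the block rest on 1 residual degree of freedom per gene and 16.4 that limma adds from all genes, against 2 and 2.40 without it. They are therefore close to a spread shared over all probe sets. The block also takes the difference between experiments out of the spread: the standard error of the genotype difference was 0.39 without and 0.060 with it for Igf1, and 0.076 and 0.059 for Igf2, whose experiments lay together. All 8 members were above the median of mean signal, so that no member was lost to either filter on dim probe sets.

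The profiles of the 4 members with a range over 0.5, Igf1, Igf2r, Igfbp3 and Igfbp4, (4 of 8, beside 7.75% of all probe sets) were compared with those of all other named probe sets by the Euclidean distance between values centred on each gene's mean over the 4 arrays. Closest to Igf1 were Taf7, a subunit of a general transcription factor, Utp18, a factor of ribosome assembly, and Snw1, a splicing and transcription cofactor, at distances of 0.030, 0.031 and 0.035 on the log2 scale. Closest to Igf2r were the collagen chaperone Serpinh1 (0.012), the metalloproteinase inhibitor Timp3 (0.020) and the coagulation factor chain F13a1 (0.026). For Igfbp3 they were AW551984 (0.034), the atypical cadherin Fat4 (0.045) and the matricellular gene Sparcl1 (0.050). For Igfbp4 they were the collagen chain Col26a1 (0.0095), the heparan sulfate sulfatase Sulf2 (0.015) and the transcription factor Creb3l2 (0.018). With 4 arrays a looser likeness takes in many genes: 70 named genes lay within 0.2 of Igf1, 681 of Igf2r, 220 of Igfbp3 and 1455 of Igfbp4. That distance is wider than those of the genes named here.

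**Figure D3:**
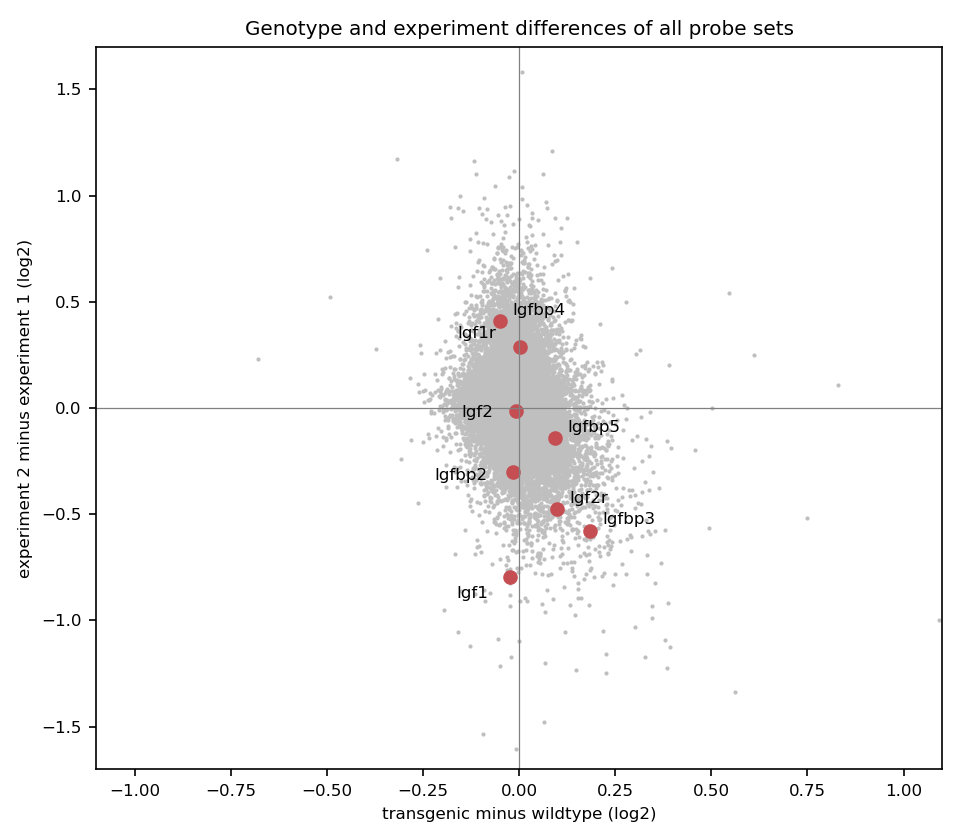
Transgenic minus wildtype (x axis) against experiment 2 minus experiment 1 (y axis) in log2 units, with 1 grey point for each of 16492 probe sets and the 8 members in red, 2 points lying outside the axes. The members spread along the y axis, from -0.80 for Igf1 to 0.41 for Igfbp4, and stay between -0.049 and 0.18 on the x axis.

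Around these 8 genes, 64 further genes were listed, of the pathway and of a list of imprinted growth genes, and 56 had a named probe set. The 11 imprinted growth genes measured, Dlk1 and Meg3 among them, are included in the counts of the 56. Between genotypes, 0 of the 56 passed an adjusted p of 0.05 in limma with or without the block, and 0 passed the fold and p thresholds without it. The exception was Dlk1, which passed with the block on arrays quantile normalized again (0.22, adjusted p = 0.0487 from limma), a setting chosen after seeing the data. On the deposited values with the block, 2 passed the fold and p thresholds, applied to the mean difference over both experiments. Both were higher in transgenic limbs, where 1.23% of all probe sets were higher. They were Htra1, a serine protease that cleaves IGF binding proteins, and Dlk1, an imprinted inhibitor of differentiation. Htra1 measured 8.63 (wildtype) and 8.84 (transgenic) log2 units in experiment 1, and 8.26 and 8.49 in experiment 2. Its transgenic pool was the higher one in each experiment, by 0.21 and 0.24 (mean 0.22, standard error 0.058, unadjusted p = 0.00129 and adjusted p = 0.158 from limma with the block). Dlk1 had values of 10.68 in 3 pools, both of experiment 1 and the wildtype of experiment 2, and of 11.11 in the transgenic pool of experiment 2. Its mean difference of 0.22 (blocked limma fit, adjusted p = 0.421) thus came from 1 array. Of the 56 genes only Htra1 differed by over 0.2 the same way in each experiment. Some genes of the cartilage and muscle lists, and Krt8 and Krt18 of the epidermal list, were also higher in the transgenic pools. Their part in the Htra1, Dlk1 and Igfbp3 differences was not tested.

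By list, 0 of 5 other binding and carrier proteins, 0 of 11 receptors and adaptors, 0 of 17 PI3K, AKT and mTOR genes and 0 of 5 genes of the growth hormone axis passed these thresholds between genotypes with the block. The same held for 1 of 7 proteases and their inhibitors and 1 of 11 imprinted growth genes, the 2 named above. The medians of the genotype difference were 0.087, -0.0089, -0.0059, 0.0090, 0.12 and 0.068 in this order of lists. The member with the largest difference was Igfbp7 (0.11) among the binding proteins, the exchange factor Sos2 (0.20) among the adaptors, the regulatory subunit Pik3r1 (0.13) in the PI3K list and the transcription factor Stat5a (-0.056) in the hormone axis, none past the thresholds. Pappa, the protease that cleaves Igfbp4, was at 0.17, made up of 0.12 and 0.22 in the experiments (blocked limma fit, adjusted p = 0.391), and was named after its values were seen.

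Between experiments, 16 of the 56 were higher and 11 lower in experiment 2 at an adjusted p of 0.05, 48.2% in all beside 39.2% of all probe sets. The PI3K, AKT and mTOR list held 13 of its 17 genes past that threshold, 8 higher and 5 lower. Akt1, a kinase downstream of Igf1r, was higher by 0.66 (adjusted p = 2.01e-07 from limma), with log2 values of 9.50 and 9.36 in experiment 1 and 10.08 and 10.09 in experiment 2. Pik3r1 fell by 0.55 (adjusted p = 1.58e-06), while Pik3r2, another regulatory subunit, rose by 0.56 (adjusted p = 8.83e-07). Among the adaptors Shc1 was higher by 0.61 and Grb2 by 0.43, while Irs2, a docking protein of the receptors, was at -0.37 and Grb10, an imprinted inhibitor of Igf1r signalling, at -0.48, all 4 past the adjusted threshold in limma. Meg3, a maternally expressed noncoding RNA, was higher by 0.78. None of the 5 genes of the growth hormone axis passed. Apart from Pik3r1, the genes of this paragraph were named after their values were seen.

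**Figure D4:**
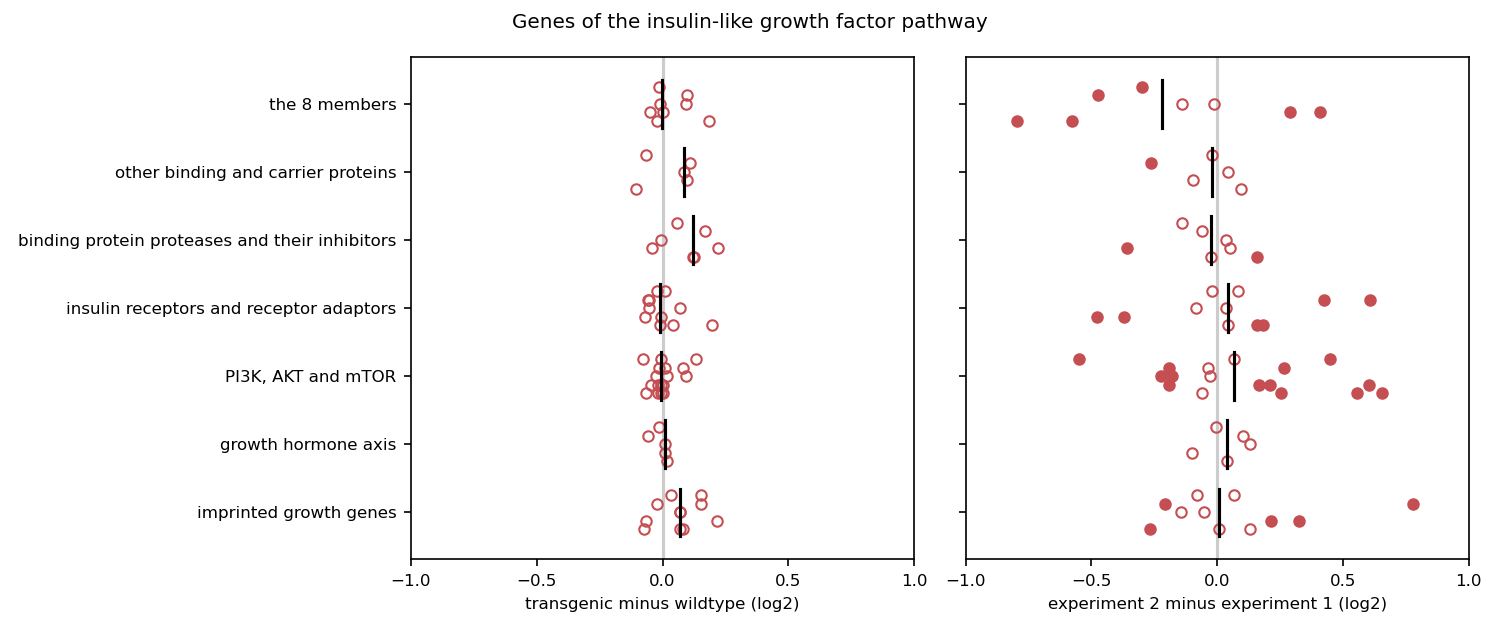
Log2 differences between genotypes (left) and between experiments (right) for the 8 members and 6 lists of pathway and imprinted growth genes, 1 point a gene, with the list median as a black bar. Filled points passed an adjusted p of 0.05 in limma with both terms: 0 on the left, and on the right 6 of 8 members and 27 of 56 genes of the lists.

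The pools differed in other ways beside the IGF genes, and their part in these results was not tested. In limb tissue taken whole, fewer cells of a type and less RNA per cell cannot be told apart. Of the limb mesenchyme markers, Prrx1 measured 10.09 to 10.52 and Twist1 10.10 to 10.17 log2 units, but Hoxa13 only 7.54 to 7.73. Of the cartilage genes, Sox9 measured 9.68 to 9.93 and Col2a1 10.55 to 11.87, but Acan only 7.32 to 7.90. The array medians were 7.81 to 7.85. Between experiments, 7 of 10 mesenchyme genes were higher and 1 lower at an adjusted p of 0.05, with list means of 9.20 and 9.26 in experiment 1 and of 9.59 and 9.62 in experiment 2. Over all probe sets 20.1% were higher and 19.1% lower in the same limma fit, the shares to set beside each count here. Of 9 skeletal muscle genes 1 was higher and 7 lower, with means of 9.87 and 9.94 and of 9.45 and 9.68. Of 8 epidermal genes 6 were lower, with means of 8.85 and 9.00 and of 8.54 and 8.60. Of 8 endothelial genes 1 was higher and 3 lower, with means of 8.50 and 8.52 and of 8.31 and 8.38, and of 7 macrophage genes 4 were lower, with means of 7.68 and 7.70 and of 7.43 and 7.50. Hepatocyte markers, checked because fetal liver makes much Igf2, had means of 6.54 to 6.73 over the 4 arrays, with Alb at 6.79 to 6.95, and 1 of 8, Afp, was lower. Of 7 smooth muscle genes 2 were higher and 3 lower, of 6 neuronal and Schwann cell genes 4 lower, and of 7 erythroid genes 4 higher and 1 lower. Of 8 cartilage genes 4 were higher and 3, Col11a1, Matn1 and Sox6, lower, with means of 9.12 and 9.18 and of 9.17 and 9.40. Col2a1, whose regulatory sequence drives the transgene, was higher by 1.21 in experiment 2 and differed by 0.087 between genotypes (blocked limma fit, adjusted p = 0.825).

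Between genotypes, with the block, 3 of the 8 cartilage genes passed the fold and p thresholds, all higher in transgenic pools, beside 1.23% of all probe sets. They were Matn1, by 0.34 (blocked limma fit, adjusted p = 0.0129), Acan, by 0.31 (0.0518), and Col11a1, by 0.30 (0.0828), while Sox9 was at -0.011. Of the 9 muscle genes 3 were higher, Acta1, Mylpf and Tnnt1 (0.21 to 0.23), and 0 passed an adjusted p of 0.05. Of the 8 epidermal genes 2 were higher, Krt8 by 0.50 (adjusted p = 0.000347) and Krt18 by 0.24 (adjusted p = 0.119, both from the blocked limma fit). Of the same list, Cdh1 was at 0.199, Krt15 at 0.018 and Krt5 at 0.0023. Krt14 was at -0.018, Trp63 at -0.048 and Epcam at -0.11, and the list median was 0.010. In the other marker lists Nefm of the neuronal genes was higher, Tbx5 of the mesenchyme genes and Hba-x of the erythroid genes were lower, and no gene of the endothelial, smooth muscle, macrophage or hepatocyte lists passed. Beyond Col2a1 and Sox9, the marker genes were named after their values were seen. Xist differed between genotypes by -2.99 and the Y-linked gene Eif2s3y by 0.83 (blocked limma fit, adjusted p = 3.73e-16 and 8.48e-06), genes read from the inactive X and from the Y chromosome. Xist measured 9.62 and 9.36 in the wildtype pools and 6.58 and 6.42 in the transgenic pools. Uty, also Y-linked and named after its values were seen, was higher in transgenic pools by 0.49, by 0.51 in experiment 1 and 0.48 in experiment 2. Across experiments its genotypes overlapped, with 7.69 and 7.14 in the wildtype and 8.20 and 7.62 in the transgenic pools. The sex make-up of the pools, as read from these genes, thus differed with genotype. It cannot be told apart from the transgene in any genotype difference given here.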

How the data were processed

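Limb RNA of 2 wildtype and 2 SHOX transgenic pools was hybridized to Affymetrix mouse genome arrays, 1 array a pool. The authors log transformed the perfect-match values, quantile normalized them, ran log-linear mixed models with the JMP Genomics software and grouped probes by Entrez gene with a custom definition. The deposited values are on a log2 scale, as read from their range of 5.52 to 14.5 and the study's log2 threshold. The step from probes to genes, and any genome build, is not given in the sources used here.

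From the 16556 probe sets 64 controls were left out. Of the 16492 others, 15270 have 1 symbol in the platform annotation and 1222 are unnamed here. Differences were fitted over all 16492 with limma 3.58.1 in R 4.3.3 (lmFit, eBayes) with Benjamini-Hochberg adjustment: genotype alone, genotype with the experiment as a block, and experiment with genotype. The study's methods name no experiment term, so the fit without it is the main one. The experiments pair the arrays through the title suffix and the submitters' account of 2 hybridization experiments; deviations of paired arrays from their group means correlated at 0.857 over probe sets. The fits were also run on simulated arrays with additive effects and the same noise level for every gene. Such a run cannot show how the fits do where the spread differs between genes. The number of arrays limits the precision, and signal over background is not known.

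The 8 genes and all lists were chosen with earlier results of these data known. The rule for named genes took the members, pathway genes past a fold and p threshold with the block or else the one of a list with the largest difference, the 3 nearest profiles of members with a range over 0.5, and Col2a1, Sox9, Xist and Eif2s3y; genes outside it are given as named after their values were seen. The study's thresholds were applied to the mean difference over both experiments. Alternatives were the block, centring, repeated quantile normalization, filters on probe sets dimmer than the 25th or the 50th percentile, an intensity trend, an unmoderated analysis of variance, no genotype term, and each array left out. Promoter sequences are from RefSeq, GRCm38.p6.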

Additional observations from a re-analysis of the deposited data

How the results depend on the processing

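Between genotypes 0 of the 8 members passed either rule under every alternative run. Over all probe sets, 0 passed an adjusted p of 0.05, against 45 with the replicate block, 82 and 152 with the block and centred or again quantile normalized arrays (both chosen after seeing the data), 1 with the filter at the 50th percentile and 1 with an intensity trend. At the fold and p thresholds 31 passed, against 256 with the block, 244 and 246 with the block on centred or again quantile normalized arrays, 15 and 6 with the filters at the 25th and 50th percentile, 48 with an intensity trend and 14 without moderation. With 1 array left out this count ran from 12 to 56, the highest without wildtype replicate 1, the lowest without wildtype replicate 2, and 20 without transgenic replicate 1. The block changed no call of a member. Of the other genes tracked, Dlk1 alone was gained, with the block and repeated quantile normalization (0.22, adjusted p = 0.0487 from limma).

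The genotype difference of Igf1r was -0.0095 on centred arrays and -0.0037 after repeated quantile normalization, with the block and without it. Leaving out 1 array without the block puts part of the experiment difference into the genotype difference, and the remaining lone array is assumed to vary like the others. In those fits the difference of every member changed sign: it ran from -0.45 to 0.41 for Igf1, from -0.039 to 0.022 for Igf2, from -0.18 to 0.19 for Igf1r, from -0.19 to 0.38 for Igf2r, from -0.17 to 0.13 for Igfbp2, from -0.16 to 0.53 for Igfbp3, from -0.31 to 0.21 for Igfbp4 and from -0.087 to 0.27 for Igfbp5. It ran from -0.025 to 0.24 for Igfbp7, from -0.18 to 0.45 for Pik3r1 and from -0.0013 to 0.43 for Dlk1, and, with no change of sign, from 0.035 to 0.41 for Htra1 and from 0.073 to 0.32 for Sos2.

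Between experiments 6 members passed an adjusted p of 0.05, and 6 or 7 did under every alternative: Igfbp5 passed on centred arrays (-0.17, adjusted p = 0.0495 from limma) and without transgenic replicate 2. At the fold and p thresholds 5 did after repeated quantile normalization, where Igfbp2 was at -0.19. Igf1, Igf1r, Igf2r, Igfbp2, Igfbp3 and Igfbp4 kept their direction and adjusted p under 0.05 in all of them, Igf1 from -0.84 to -0.75 with 1 array left out. Igf2 became 0.11 after repeated quantile normalization and ran from -0.041 to 0.017 with 1 array left out, Igfbp5 from -0.30 to 0.017, and Dlk1 from -0.00053 to 0.43. The count over all probe sets, 6473, ran from 3798 to 5012 with 1 array left out, the lowest without transgenic replicate 1. How far dim probe sets limit these counts is not known, since background was not measured here.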
